A study of Mus musculus with 4 samples.

Results

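Delta cells of mouse pancreatic islets were described here in 4 droplet single-cell RNA-seq libraries. Members were chosen by their measured hormone counts. A delta cell was a barcode with under 10% mitochondrial UMIs, 3000 to 50000 UMIs and 2000 to 5000 detected genes in which Sst made up at least 2% of UMIs and exceeded each of Ins1 plus Ins2, Gcg and Ppy plus Pyy. This gate held 1110 of 22218 barcodes, or 8.7% of the 12752 barcodes that passed the filter on UMIs, genes and mitochondrial UMIs. Islets came from male C57BL6/N littermates, wild type at Pax4 (WT) or homozygous for a Pax4 knock-in allele (HH), a germline allele that all islet cells carry. WT SCD and HH SCD mice were on standard chow diet at 12 weeks of age, and WT HFD and HH HFD mice were at 16 weeks after 4 weeks of high-fat diet. Each group was 1 library made from the pooled islets of 2 to 3 mice and dissociated with trypsin. Differences between groups thus have no replicate check: the library and the group cannot be told apart, nor can diet and age.

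Delta cells are the somatostatin cells of the islet. Somatostatin acts on nearby beta and alpha cells through inhibitory G-protein-coupled receptors and restrains insulin and glucagon release. Delta cells are electrically excitable, carry KATP channels and respond to glucose, ghrelin, urocortin 3 and autonomic input, and the homeobox factor Hhex is known to maintain them. Pax4 is a paired-box factor of the embryonic precursors that give rise to beta and delta cells. No Pax4 UMI was found in the delta cells of any library, where 3 UMIs would have stood for 0.85 (WT SCD), 0.961 (HH SCD), 1.51 (WT HFD) and 1.25 (HH HFD) CPM. CPM is the UMI count of a gene per 1000000 UMIs summed over the delta cells of that library. The level of Pax4 gave no check of the genotype labels. The authors also report comparable Pax4 mRNA in WT and HH islets on both diets.

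Transcription of Sst is driven through a cAMP response element close to its start, the classical site from which cAMP-responsive transcription by CREB was worked out. It is shown because Sst defines these cells. The window is chr16:23890874-23890903 on the minus strand of GRCm38.p6, 59 to 30 bases before the RefSeq start of Sst, and capitals mark the element.

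Sst: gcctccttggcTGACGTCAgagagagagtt

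The element TGACGTCA reads the same on both strands. It was found in the 250 bases before the start of 508 of 32851 RefSeq promoters, or 1.55%. Of the delta markers listed for this work, 10 of 16 had a promoter entry and 1 of these, Sst itself, held it. Sst spans chr16:23889573-23890958 in the GENCODE annotation of GRCm38, whose 5′ end lies upstream of the RefSeq start, so the window falls within the annotated transcript there.

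The WT SCD library gave 331 delta cells, HH SCD gave 333, WT HFD gave 157 and HH HFD gave 289. Their UMIs summed to 3530208, 3121477, 1984447 and 2393610, with medians of 10389, 9267, 12462 and 7618 UMIs and of 3141, 2887, 3604 and 2566 genes per cell in the same order. HH HFD cells were thus the shallowest and WT HFD cells the deepest and fewest. The filter passed 61.9%, 67.8%, 38.3% and 61.6% of barcodes, so WT HFD lost the largest share. Between 6 and 11 barcodes were shared by any 2 libraries, and 0 of them were delta cells. Sst, which the gate used, had a median of 17.6%, 18.3%, 17.7% and 18.1% of UMIs and ranged from 5.32% to 43.8% over all cells. No cell lay just under the 2% bound with Sst as its highest hormone. At the other bound, 128 delta cells had Sst at less than 1.5 times the next hormone, and 125 cells with at least 2% Sst stayed outside because another hormone was higher, which was Ins1 plus Ins2 in 72, Gcg in 12 and Ppy plus Pyy in 41.

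The Sst cells also carried other hormone transcripts. Pyy, peptide YY, made up 4.04%, 4.22%, 3.99% and 4.35% of all delta UMIs in WT SCD, HH SCD, WT HFD and HH HFD, and Ppy, pancreatic polypeptide, 2.05%, 2.09%, 1.48% and 1.92%. The gate used both, so these are descriptions. In beta cells Pyy was 0.0878% at most and Ppy 0.166% at most, and in alpha cells Pyy was 1.13% to 2.31% and Ppy 0.547% to 1.06%. Ppy plus Pyy reached 2% of UMIs in 1036 delta cells, or 93.3%. Ins1 plus Ins2 reached 2% in 166 delta cells and Gcg in 2. Ins2 made up 1.39%, 0.984%, 0.847% and 1.02% of delta UMIs, near its share in alpha cells (1.03%, 1.06%, 0.649% and 0.785%) and PP cells (1.12%, 0.983%, 0.528% and 0.733%), so no insulin expression is read from it. Iapp, amylin, made up 2.53%, 2.66%, 2.66% and 2.88% of delta UMIs, against 0.388% at most in PP cells and 0.24% at most in alpha cells. Beta cells had more, at 3.7%, 3.87%, 4.1% and 5.93%. Iapp was not used by the gate.

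Of all cells in the delta, beta, alpha and PP gates, WT SCD had 10.9% delta cells (95% exact binomial interval 9.83 to 12.1) and HH SCD had 10.9% (9.85 to 12.1). WT HFD had 8.98% (7.68 to 10.4) and HH HFD 7.13% (6.35 to 7.96). Both chow libraries lay above both HFD libraries. HH minus WT was 0.02 percentage points on SCD (-1.57 to 1.61) and -1.85 on HFD (-3.49 to -0.31). With a looser filter of at least 1000 UMIs, 500 genes and up to 20% mitochondrial UMIs, with no upper limit on UMIs or genes, the HFD difference was 0.75 points (-0.38 to 1.85), the opposite sign with an interval that held 0. Taken over all cells that passed the filter, it was -1.14 points with an interval of -2.57 to 0.23. HFD minus SCD was -1.94 points in WT (-3.68 to -0.13) and -3.81 in HH (-5.21 to -2.44). The WT value was -0.04 when delta cells with 2% or more of insulin or Gcg UMIs were left out. Intervals here and below cover counting error only.

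**Figure D1:**
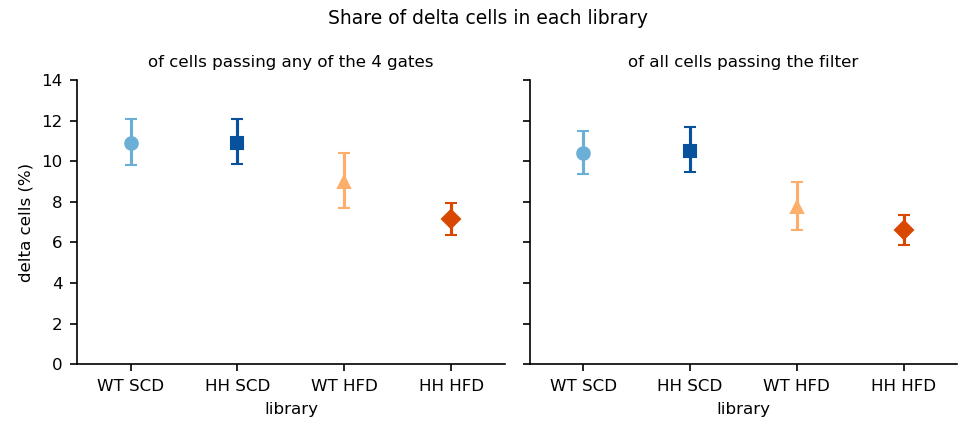
Percentage of delta cells in each library, of the cells in any of the 4 hormone gates (left) and of all cells passing the filter (right). Points are 1 library each and bars are 95% exact binomial intervals; of gated cells, WT SCD and HH SCD both lie at 10.9%, WT HFD at 8.98% and HH HFD at 7.13%.

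The delta label was checked against markers that the gate did not use. UMIs were summed in each library for the delta, beta, alpha and PP gates (2171, 2085, 1228 and 3058 beta cells, 397, 450, 278 and 478 alpha cells, 133, 177, 85 and 230 PP cells), and the 16 sums were fitted with edgeR's quasi-likelihood test, TMM scaling and the library as a block. Genes were called at a Benjamini-Hochberg adjusted p of 0.05. Over 11890 genes, 29.3% were called higher and 29.3% lower in delta than in beta cells, 21.8% and 22.1% against alpha cells, and 16% and 15.5% against PP cells. The 3 contrasts share the delta sums, and the hormones of the gates were left out. Of 15 delta markers other than Sst, 11 passed edgeR's expression filter, which a gene can pass on the delta sums alone. Of these 11, 10 were higher than in beta, 10 than in alpha and 9 than in PP cells. Nrn1, Prg4, Bche and Pou3f1 were left out by that filter. They had a UMI in at most 0.637%, 0.637%, 0.901% and 7.64% of the delta cells of any library. Casr, the calcium-sensing receptor, did not pass against beta or PP cells, at 13.3 ± 4.52 CPM in delta and 8.58 ± 2.63 in PP cells (SD, n = 4 libraries). Etv1, a transcription factor, did not pass against PP cells and was lower than in alpha cells (271 ± 6.51 against 332 ± 24.7 CPM), a call lost with all UMIs as the library size.

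TMM sets the median ratio of all genes near 0. With all UMIs as the library size it moved up by 0.94 against beta, 0.38 against alpha and 0.58 against PP cells on the log2 scale, and 93.4%, 86.5% and 95.1% of calls were then higher in delta, against 49.9%, 49.6% and 50.8% with TMM. Directions below are given only where both scalings agree in sign, unless said. Delta cells had 311 genes of 50 CPM or more that were higher than in all of beta, alpha and PP cells with TMM. The use of all UMIs raises every delta ratio, so it is no check on these. It can lower the count on the other side, where 238 genes were lower than in all of them with TMM and 26 of these with all UMIs.

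Of genes higher in all 3 contrasts with 50 CPM or more in delta cells, Cacna2d2 had the highest difference to the nearest other gate. Cacna2d2, an accessory subunit of voltage-gated calcium channels, stood at 58.9, 65.7, 76.6 and 56 CPM in delta cells of WT SCD, HH SCD, WT HFD and HH HFD, against 1.83 ± 1.1 in PP, 0.351 ± 0.434 in alpha and 0.279 ± 0.165 in beta cells (SD, n = 4). Its nearest difference, against PP cells, was 4.48 log2 (edgeR adjusted p = 3.7e-07). Ptprz1, a receptor tyrosine phosphatase best known from glia, was at 150, 160, 158 and 157 CPM and 4.42 log2 above PP cells (8.5e-07, edgeR adjusted p). The 4 libraries hardly differed in it. Hhex had 305, 250, 309 and 270 CPM in delta cells and 9.3 ± 2.42 in PP cells, 4.36 log2 apart (adjusted p = 3.6e-06, edgeR). Ly6h, a GPI-anchored protein that binds nicotinic receptors, had 465, 471, 612 and 577 CPM and was 4.23 log2 above PP cells. Both HFD libraries were higher than both chow libraries in it.

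Others of the 15 highest genes, given with the nearest log2 difference to beta, alpha or PP cells, were Spock3, a proteoglycan (4.41), Bmp3, a bone morphogenetic protein (4.40), Fabp5, a fatty acid binding protein (4.27), Dpp6, an accessory subunit of A-type potassium channels (4.19), Cd24a, a surface glycoprotein (4.12), Syt1, the fast calcium sensor of synaptic vesicle release (3.82), Mef2c, a transcription factor (3.79), Mest, an imprinted gene (3.78), Shisal2b (3.72) and Lingo1, a neuronal surface protein (3.69). Gap43, a growth cone protein, was at 273, 251, 279 and 275 CPM and 3.38 log2 above PP cells (edgeR adjusted p = 2.5e-05). Over the 16 sums, the genes most like Sst among 2680 were Ptprz1 (Spearman rho 0.98), Ly6h (0.97), Cacna2d2, Spock3 and Cela1 (0.96 each). Sst defined the delta sums, which also share libraries and depth, so this is a description of the same contrast between gates.

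**Figure D2:**
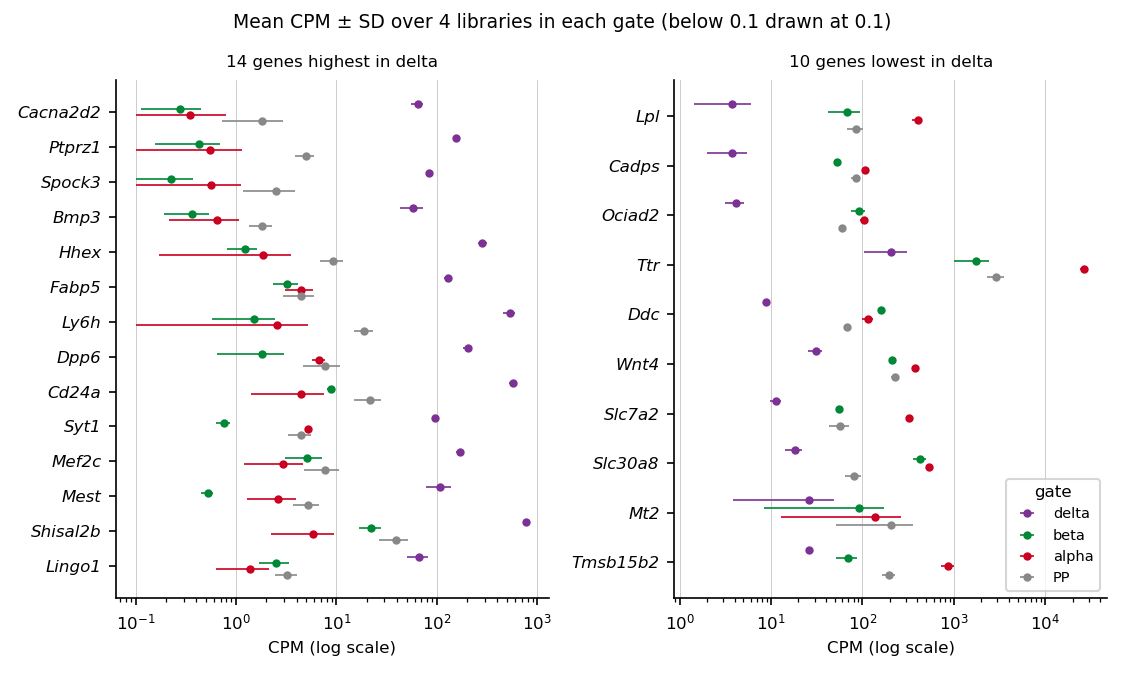
Mean CPM with SD over 4 libraries on a log axis, for 14 of the 15 genes highest (left) and the 10 genes lowest (right) in delta cells against beta, alpha and PP cells. Hhex stands at 284 CPM in delta cells and 9.3 in PP cells, and Lpl at 3.75 CPM in delta and 67.6 in beta cells.

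Lpl had the lowest difference among genes lower in all 3 contrasts with 50 CPM or more in each other gate. Lpl, lipoprotein lipase, had 3.75 ± 2.31 CPM in delta cells against 67.6 ± 25.5 in beta, 84.5 ± 17.3 in PP and 401 ± 49.6 in alpha cells (nearest log2 -4.95, edgeR adjusted p = 5.3e-07). Cadps, a priming factor of dense-core vesicles, had 3.72 ± 1.7 CPM in delta and 53.3 ± 4.07 in beta cells (-4.70, edgeR adjusted p = 1e-19). Ddc, which makes dopamine and serotonin from their amino acid precursors, had 8.9 ± 0.653 CPM against 158 ± 1.75 in beta cells. Slc30a8, the granule zinc transporter, had 18.2 ± 3.84 CPM against 424 ± 67.2 in beta and 80.7 ± 16.6 in PP cells. Ociad2 (-4.48), Ttr, a carrier of thyroxine and retinol binding protein (-4.03), Wnt4 (-3.43), Slc7a2 (-2.90), Mt2, a metallothionein (-2.65), and Tmsb15b2 (-2.32) completed the 10, with the nearest log2 difference given for each. These 10 stayed lower in all 3 contrasts with all UMIs as the library size.

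Receptors were described from a list. Ghsr, the ghrelin receptor, was at 25.5, 27.2, 27.2 and 29.7 CPM in delta cells and 0.649 ± 0.409 in PP cells (SD, n = 4), 4.77 log2 apart (edgeR adjusted p = 3.2e-09). Crhr2, the urocortin receptor, was at 8.5, 4.81, 7.05 and 7.52 CPM and at most 0.2 on average elsewhere. Glp1r, the GLP-1 receptor, had 65.5 ± 6.44 CPM in delta cells, below beta (239 ± 34.8) and above alpha cells (4.85 ± 1.1). Adra2a, the alpha-2A adrenergic receptor, had 43 ± 8.97 CPM in delta, 78.7 ± 16 in beta and 2.83 ± 0.841 in alpha cells. Ffar4, a receptor for long-chain fatty acids, had 85 ± 3.73 CPM in delta, 29.8 ± 7 in alpha and 1.29 ± 0.228 in beta cells. P2ry1, a purinergic receptor, had 43.5 ± 13.3 CPM in delta and 0.959 ± 0.172 in alpha cells, and against beta cells (35.9 ± 6.12 CPM) its direction flipped with the scaling. Of 20 receptor genes tested, 7 were higher and 10 lower than in beta, 12 and 5 against alpha, and 9 and 6 against PP cells with TMM. Over all genes 29.3% were higher and 29.3% lower against beta, 21.8% and 22.1% against alpha, and 16% and 15.5% against PP cells. With all UMIs as the library size 9 receptor genes were higher and 8 lower against beta, 14 and 4 against alpha, and 13 and 5 against PP cells, where 81.1%, 49.7% and 66.6% of all genes were higher and 5.69%, 7.78% and 3.45% lower.

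Of 19 listed transcription factors tested with TMM, 7 were higher and 8 lower than in beta cells. The counts were 7 and 9 against alpha and 7 and 7 against PP cells. With all UMIs they were 12 and 3, 8 and 8, and 10 and 7. Of all genes, 29.3%, 21.8% and 16% were higher and 29.3%, 22.1% and 15.5% lower with TMM. With all UMIs 81.1%, 49.7% and 66.6% were higher and 5.69%, 7.78% and 3.45% lower. Hhex, Isl1 and Rfx6 were higher in delta than in beta, alpha and PP cells. Nkx2-2 was lower than in each of them (nearest log2 -0.88). Isl1, a LIM homeobox factor of endocrine cells, had 443 ± 74.1 CPM in delta, 197 ± 27.3 in alpha, 180 ± 43.9 in PP and 94.8 ± 7.85 in beta cells. Rfx6, another endocrine factor, had 67.6 ± 9.02 CPM in delta and 28.1 ± 2.88 in alpha cells. Pdx1, shared by beta and delta cells, had 88.6 ± 19.8 CPM in delta and 83.4 ± 13.3 in beta cells, a comparison whose sign depended on the scaling, and 5.36 ± 1.73 in alpha cells. Neurite genes, a list of cytoskeletal and adhesion genes of neurons, were higher in 12, 9 and 10 of 18 tested against beta, alpha and PP cells and lower in 4, 3 and 4 with TMM, and higher in 15, 13 and 14 with all UMIs, where 81.1%, 49.7% and 66.6% of all genes were higher. Heat shock genes were higher in 5, 9 and 3 of 10 with TMM, where 29.3%, 21.8% and 16% of all genes were. With all UMIs 10 of 10 were higher in each contrast, where 81.1%, 49.7% and 66.6% of all genes were. Hspa8 against PP cells changed sign between the scalings. The metallothioneins Mt1 and Mt2 were lower in every contrast, but without the library block the call of Mt2 against alpha cells was lost (edgeR adjusted p = 0.055). Ribosomal protein genes were higher than in beta cells in 48 of 80 with TMM (29.3% of all genes) and in 80 with all UMIs (81.1%), and lower than in alpha cells in 77 (22.1%) and 63 (7.78%). Against PP cells their direction flipped with the scaling, from 45 lower to 73 higher. Rab3b, a vesicle GTPase, had 165 ± 10.9 CPM in delta, 31.9 ± 8.15 in PP and 13.9 ± 3.99 in beta cells.

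Channels and granule genes were also described from lists. Of 20 listed genes of glucose handling and channels, 8 were higher and 9 lower than in beta cells with TMM. The counts were 7 and 4 against alpha and 8 and 2 against PP cells. With all UMIs they were 15 and 4, 11 and 2, and 13 and 0. Of all genes, 29.3%, 21.8% and 16% were higher and 29.3%, 22.1% and 15.5% lower with TMM. With all UMIs 81.1%, 49.7% and 66.6% were higher and 5.69%, 7.78% and 3.45% lower. Cacna1h, the T-type calcium channel, was at 32.3, 31.1, 38.8 and 33.8 CPM in delta cells of WT SCD, HH SCD, WT HFD and HH HFD. It was 3.43 log2 above PP cells (2.07 ± 1.23 CPM, SD, n = 4 libraries, edgeR adjusted p = 3e-07) and at 0.301 CPM or less on average in alpha and beta cells. Scn9a, a voltage-gated sodium channel, had 72.2, 94.8, 92.7 and 94.4 CPM in the same order, against 34.6 ± 6.53 in PP, 27.7 ± 4.34 in alpha and 16.5 ± 1 in beta cells. Abcc8, the sulfonylurea receptor of the KATP channel, had 463, 480, 518 and 502 CPM and Kcnj11, its pore, 59.5, 50.6, 50.9 and 43.4. Kcnj11 was highest in WT SCD (interval 51.7 to 68.1) and lowest in HH HFD (35.5 to 52.6). Abcc8 was higher than in alpha (305 ± 5.99 CPM) and PP cells (241 ± 20.8) and did not pass against beta cells (232 ± 24.6, log2 0.14, edgeR adjusted p = 0.096). Slc2a2, the glucose transporter of beta cells, had 5.95 ± 2 CPM in delta and 251 ± 68.4 in beta cells.

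Of 24 listed granule and exocytosis genes, 7 were higher and 12 lower than in beta cells with TMM. The counts were 5 and 9 against alpha and 5 and 8 against PP cells. With all UMIs they were 16 and 5, 11 and 7, and 19 and 2. The shares of all genes are those given for the channels. Chgb, chromogranin B of the granule matrix, had 4016, 4295, 4329 and 4236 CPM in delta cells. It was higher than in PP (1140 ± 116), beta (699 ± 147) and alpha cells (637 ± 26.8, SD, n = 4 libraries), by 1.30 log2 at the nearest (edgeR adjusted p = 1.1e-05). Chga, chromogranin A, was lower than in beta (6837 ± 684 CPM) and alpha cells (5470 ± 443), at 3574 ± 356 in delta cells. Pcsk1, a prohormone convertase, had 57.8 ± 5.28 CPM in delta, between 222 ± 8.02 in beta and 4.8 ± 0.218 in alpha cells. Sstr1, a somatostatin receptor, was at 5.1, 6.73, 6.05 and 6.68 CPM in delta cells and at 0.136 ± 0.272 in PP cells, while Sstr2, the receptor of alpha cells, had 21.9 ± 3.06 CPM in alpha and 1.85 ± 1.18 in delta cells.

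Shares of cells with a UMI were compared at 1 depth. After thinning each cell to 3000 UMIs, Hhex was found in 55%, 48.3%, 55.4% and 54% of delta cells of WT SCD, HH SCD, WT HFD and HH HFD. In 500 beta cells drawn per library it was found in at most 0.8%, in alpha cells in at most 1.08% and in PP cells in 2.35% to 4.51%. The beta share is read as background whose source was not tested, with a median of 24765 to 29544 UMIs per cell before thinning against 7618 to 12462 in delta cells. Without thinning the delta share was 89.4%, 83.8%, 91.7% and 79.9%. Ghsr was found in 8.76%, 9.91%, 8.28% and 6.92% of thinned delta cells and in 0 of 500 thinned beta cells in every library. For beta cells with a UMI at this depth the exact binomial limit is 0.735%, which does not bound the share that express it. Without thinning 0.4% of WT HFD beta cells had a Ghsr UMI.

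Markers of other cells were summed over each list. Endothelial markers came to 89.2, 10.3, 10.6 and 136 CPM in delta cells of WT SCD, HH SCD, WT HFD and HH HFD with 1 or 2 of 6 at 0, and stromal markers to 55.8, 0.641, 1.01 and 109 CPM with 0 to 4 of 6 at 0. Red blood cell markers came to 0.283, 1.6, 5.54 and 344 CPM, with all 4 found in HH HFD alone. Immune markers ranged from 103 to 178 CPM, ductal from 172 to 185, Schwann from 26.3 to 31.7 and acinar from 0.283 to 11.1. A few cells held the excess: without the cells that had 10 or more UMIs of endothelial, stromal or red blood cell markers or of Ghrl, which left 1099, endothelial markers ranged from 10.3 to 14.4 CPM and red blood cell markers from 0 to 5.58. Beta markers came to 18698, 13398, 11136 and 13437 CPM, highest in WT SCD, and alpha markers to 966 to 1596. Scrublet's own threshold marked 102 of all cells that passed the filter. The cells with the highest scores in each library were instead taken as doublets, 348 in all, a number set by the expected rate. Of the 1110 delta cells, 17 were among them. The part of these cells in the ratios below was not tested, beyond the values given with each gene.

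Few genes differed 2-fold between HH and WT delta cells. Genes averaging at least 50 CPM numbered 2661 on SCD, of which 0 (0%) were past 2-fold higher and 1 (0.0376%) lower in HH, and 2699 on HFD, of which 1 (0.0371%) was higher and 3 (0.111%) lower. The median log2 ratio was -0.02 on SCD and -0.03 on HFD, and 90% of genes were within 0.233 and 0.295. With the sums of every class drawn down to the same 1840814 UMIs and genes of 100 CPM or more, 0.416% of genes were past 1.5-fold in delta cells on SCD and 1.18% on HFD, against 0.84% and 5.52% in beta, 0.328% and 0.823% in alpha and 1.34% and 1.13% in PP cells. The difference between the classes was not tested.

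On SCD the 5 genes highest in HH were Fos, Pdyn, Atf3, Krtap17-1 and Fosb. Fos, a subunit of the AP-1 transcription factor, went from 654 CPM in WT to 1297 in HH, a log2 ratio of 0.99 (0.91 to 1.06). The same ratio was 0.40 in beta, 0.43 in alpha and 0.66 in PP cells. Pdyn, the precursor of dynorphin peptides, went from 40.5 to 76.9 CPM (0.92, interval 0.62 to 1.23) and was also higher in HH on HFD, at 65.5 and 95.3 CPM (0.54). Its SCD ratio was -0.42 in the 24 WT and 14 HH cells whose Sst was at least 10 times every other hormone. Atf3, a stress-induced factor, went from 313 to 502 CPM, Fosb from 1438 to 2152 and Krtap17-1 from 58.6 to 91.

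The 5 lowest in HH on SCD were Ttr, Mt1, Egr4, Ramp1 and Uchl1. Ttr went from 358 CPM in WT to 156 in HH, a log2 ratio of -1.20 (-1.35 to -1.05), and was the 1 gene past 2-fold. Of its 1263 WT UMIs, 774 lay in 3 cells, and without the top 3 cells of each library its level was 139 CPM in WT and 134 in HH. Mt1, a metal-binding metallothionein, went from 478 to 259 CPM (-0.88, interval -1.01 to -0.76) and was also lower in HH in beta (-0.93), alpha (-0.58) and PP cells (-0.61). Ramp1, a partner of calcitonin-family receptors, went from 135 to 82.7 CPM (-0.71). Egr4, an immediate early factor, went from 75.1 to 45.2 CPM, and Uchl1, a ubiquitin hydrolase, from 74.8 to 50 CPM.

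On HFD the 5 highest in HH were Hbb-bs, Mt1, Il6ra, Ttr and Crip1. Hbb-bs, a haemoglobin gene, had 4.54 CPM in WT and 240 in HH (log2 5.73), but 571 of its 575 HH UMIs lay in 1 cell, and its ratio was -1.41 without the cells rich in other-cell markers. Mt1 went from 80.6 to 142 CPM (0.81, interval 0.54 to 1.09) and Ttr from 123 to 193 (0.64), both opposite in sign to SCD. Il6ra, the interleukin-6 receptor, went from 55.9 to 87.3 CPM and Crip1 from 44.3 to 68.9. Of the 165 HH UMIs of Crip1, 21 lay in 1 cell. Without the cells rich in other-cell markers Crip1 had 44.7 CPM in WT and 57.6 in HH. Pdyn was the gene of the SCD top 5 that was higher in HH on both diets with both intervals above 0.

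The 5 lowest in HH on HFD were Ghrl, Hspa1b, Atf3, Bmp3 and Fam118a. All 288 WT UMIs of Ghrl, ghrelin, were in 1 cell and HH had 0, so no fold is read from it. Hspa1b, an inducible heat shock chaperone, went from 461 CPM in WT to 214 in HH, a log2 ratio of -1.11 (-1.27 to -0.95), and the same ratio was -1.76 in beta, -0.70 in alpha and -0.97 in PP cells. Atf3 went from 595 to 290 CPM (-1.03). Bmp3, among the 15 genes highest in the delta gate, went from 78.6 to 45.1 CPM (-0.80, interval -1.17 to -0.44), while on SCD it had 48.2 CPM in WT and 58.9 in HH. WT HFD thus stood above the other libraries in Bmp3.

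**Figure D3:**
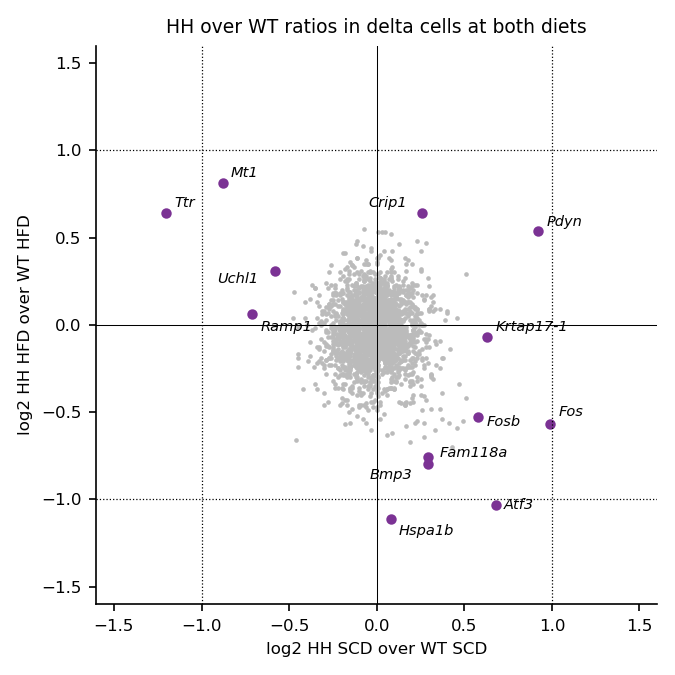
Log2 ratio of HH over WT in delta cells on SCD (horizontal) and HFD (vertical), 1 point per gene of 50 CPM or more in both, with dotted lines at 2-fold and named genes of 50 CPM or more in both in purple. Fos, at 0.99 and -0.57, and Atf3, at 0.68 and -1.03, lie right of and below the middle, Ttr and Mt1 left of and above it, and Pdyn right of and above it.

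Most listed immediate early genes had HH over WT ratios of opposite sign on SCD and HFD. Of 13 of the 15 listed genes with 50 CPM or more, 12 had a ratio above 0 on SCD (median log2 0.37, all genes -0.02) and 13 of 13 were below 0 on HFD (median -0.54, all genes -0.03). In 10 of the 12 both intervals were clear of 0, while over all 2454 genes with both ratios 35 had that pattern and 9 the reverse. Ier2 was below 0 on both diets, at -0.08 (-0.19 to 0.03) and -0.23. Egr4, which is not on the list, was also lower in HH on both, at 75.1 and 45.2 CPM in WT and HH on SCD and 59 and 25.9 on HFD. Jun, the other AP-1 subunit, had 1368, 1772, 4089 and 2805 CPM in WT SCD, HH SCD, WT HFD and HH HFD. Egr1, a zinc finger factor of the same response, had 899, 1195, 1931 and 1313 CPM. WT HFD was the highest and WT SCD the lowest library in both. The log2 ratio of Jun in HH over WT was 0.19 in beta, 0.15 in alpha and 0.44 in PP cells on SCD, and -0.75, 0.03 and 0.12 on HFD. These genes also respond to tissue dissociation, and each library was dissociated on its own, so genotype and dissociation cannot be told apart. The delta markers had medians of 0.00 and -0.07 over 9 genes, and granule and exocytosis genes 0.05 and -0.02 over 22.

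More genes differed between the diets. HFD over SCD was past 2-fold higher in 16 (0.591%) and lower in 27 (0.997%) of 2709 genes in WT, and in 8 (0.302%) and 33 (1.25%) of 2650 genes in HH. Past 1.5-fold were 6.05% of genes in WT and 5.96% in HH, against 0.301% and 0.741% for HH over WT on SCD and HFD. The 2 diet ratios rest on different libraries.

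Of the genes highest on HFD, Fos had 654 and 1297 CPM on SCD and 4106 and 2769 on HFD in WT and HH (log2 2.65 and 1.09). In WT its ratio was 2.52 in alpha and 3.47 in PP cells but -0.16 in beta cells. Dusp1, a phosphatase that shuts off MAP kinases, had 98.9 and 127 CPM on SCD against 534 and 384 on HFD (2.43 and 1.59). Txnip, a thioredoxin-binding protein induced by glucose, had 182 and 234 CPM against 555 and 521 (1.61 and 1.15). Jun had log2 ratios of 1.58 in WT and 0.66 in HH, and Ier2, another immediate early gene, 1.49 and 1.34. Rgs2, a brake on G-protein signalling, had 235 and 168 CPM against 552 and 566 (1.24 and 1.75), and Rsrp1 153 and 160 against 391 and 361. In these genes both HFD libraries lay above both chow libraries. Ghrl in WT and Hbb-bs in HH were also among the 5 highest, and each rested on 1 cell, which held all 288 UMIs of Ghrl and 571 of the 575 UMIs of Hbb-bs.

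Mt1 was the lowest gene on HFD in WT, with 478 CPM on SCD and 80.6 on HFD (log2 -2.57, interval -2.81 to -2.33), and had 259 and 142 CPM in HH (-0.87). Its WT ratio was -2.03 in beta, -2.92 in alpha and -2.38 in PP cells. Cldn4, a tight junction claudin, had 131 and 112 CPM on SCD and 30.2 and 19.2 on HFD (-2.12 and -2.54). Nr1d1, the clock repressor REV-ERB alpha, had 144 and 102 CPM against 37.8 and 35.5 (-1.93 and -1.52), and the ratio was below -1.5 in beta, alpha and PP cells of both genotypes. Klf7, a Krueppel-like factor, had 212 and 191 CPM against 65 and 71 (-1.70 and -1.43). The chow libraries lay above the HFD libraries in all of them. Hmgcs1, the HMG-CoA synthase of cholesterol synthesis, had 93.5 and 81.7 CPM against 37.3 and 20.9 (-1.33 and -1.97), Dusp8, a MAP kinase phosphatase, 138 and 134 against 52.9 and 38 (-1.38 and -1.82), and Fam118a 129 and 157 against 63.5 and 37.6 (-1.02 and -2.06). Dyrk2, a protein kinase, had 102 CPM in HH SCD and 30.5 in HH HFD (-1.74). Ttr had a WT diet ratio of -1.53, which rests on the same 3 WT SCD cells.

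**Figure D4:**
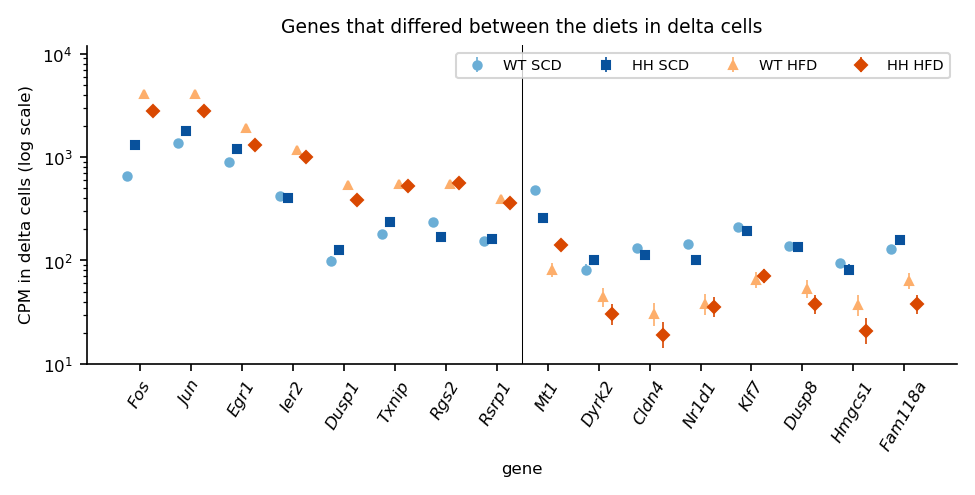
CPM in delta cells on a log axis for genes higher (left of the line) and lower (right) on HFD, 1 point per library with its 95% exact Poisson interval. Fos goes from 654 (WT SCD) and 1297 (HH SCD) to 4106 (WT HFD) and 2769 (HH HFD), and Cldn4 from 131 and 112 to 30.2 and 19.2.

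The lists showed the diet ratio by class of gene. Immediate early genes had a median log2 of 0.93 in WT with 6 of 13 past 2-fold higher, and of 0.10 in HH with 3 past 2-fold higher, 1 past 2-fold lower (Nr4a1, -1.21) and 5 of 13 below 0. The HH median was -0.56 where Sst had to be at least 10 times each other hormone. Heat shock genes had 0.41 and -0.02 over 10 genes, with Hspa1a at 481, 547, 1245 and 783 CPM in WT SCD, HH SCD, WT HFD and HH HFD. Interferon and MHC I genes had 0.38 and 0.36, with 4 of 4 tested above 0 in both genotypes and 8 of 12 below the CPM minimum. Ribosomal protein genes had -0.26 and -0.21, with 61 and 63 of 79 below 0, and mitochondrially encoded genes -0.37 and -0.29, with 11 and 10 of 11 below 0. The rule bounded mitochondrial UMIs, so the last values are a description, and with the looser filter they were -0.31 and -0.14. The median over all genes was 0.02 and 0.01. Delta markers, at 0.07 in both genotypes, and granule and exocytosis genes, at 0.06 and -0.02, lay close to it. Rbp4, the retinol binding protein, was the highest of the delta markers, at 4430, 4754, 5918 and 5848 CPM, with both HFD libraries above both chow libraries. Sstr3, a somatostatin receptor, had 41.6, 46.1, 78.1 and 81.9 CPM, a diet ratio of 0.91 (0.57 to 1.24) in WT and 0.83 (0.51 to 1.15) in HH.

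The delta cells of a library were not uniform. Excess variation was the squared coefficient of variation of per-cell counts beyond what counting and depth give, taken for each gene in the library where it was lowest. Its median was -0.0148 over 2310 genes. Krtap17-1 had the highest value, 7.65. It had 0 UMIs in 78.9% to 82.7% of delta cells, and the tenth of cells with the most held 82.1% to 90.1% of its UMIs. Cela1, an elastase family member, followed at 4.35, and had 0 UMIs in 65.6%, 61.6%, 63.1% and 75.1% of cells of WT SCD, HH SCD, WT HFD and HH HFD. Next were B2m, the MHC I light chain (2.42), H1fx, a linker histone (2.18), and Ppp1r17, a phosphatase inhibitor (2.09).

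Ppp1r17 was compared between delta cells with and without Cela1. This pair was chosen after the values were seen, so it is a description with no test. After thinning to 3000 UMIs, Cela1 was found in 65, 80, 34 and 45 delta cells, or 19.6%, 24%, 21.7% and 15.6%, and Ppp1r17 in 6.15%, 1.25%, 14.7% and 6.67% of these. Cells with 0 Cela1 UMIs unthinned numbered 217, 205, 99 and 217, and thinned Ppp1r17 was found in 30.4%, 24.9%, 23.2% and 23.5% of them. Summed over cells, Ppp1r17 had 47.2 CPM with and 170 without Cela1 in WT SCD, 22.1 and 127 in HH SCD, 44.2 and 122 in WT HFD, and 46.6 and 139 in HH HFD. The log2 difference was -1.84, -2.52, -1.46 and -1.58, in 1 direction in all 4 libraries. Among 2248 genes of 50 CPM or more, 3 were past 1.5-fold lower in Cela1 cells in all 4 libraries, or 0.133%, namely Ppp1r17, Caly and Gc, the vitamin D binding protein, and 1 was higher, or 0.0445%, namely Cfap61. Fxyd3, a regulator of the sodium pump, had a ratio of 0.95, 1.17, 0.54 and 1.25, and Oit1 of 1.30, 1.07, 1.31 and 1.31, but Fxyd3 was under 1.5-fold in WT HFD and Oit1 under 50 CPM in each library. Of 5 delta markers compared, Gap43 was lower in Cela1 cells in all 4 libraries (-0.65, -0.77, -0.57 and -0.29, the last with an interval that held 0). Ptprz1 was also below 0 in all 4 (-0.13, -0.35, -0.08 and -0.38), with an interval clear of 0 in HH SCD alone. Rbp4 had -0.05, 0.12, 0.13 and 0.34, Ly6h lay between -0.14 and 0.06 and Hhex between -0.43 and 0.29.

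**Figure D5:**
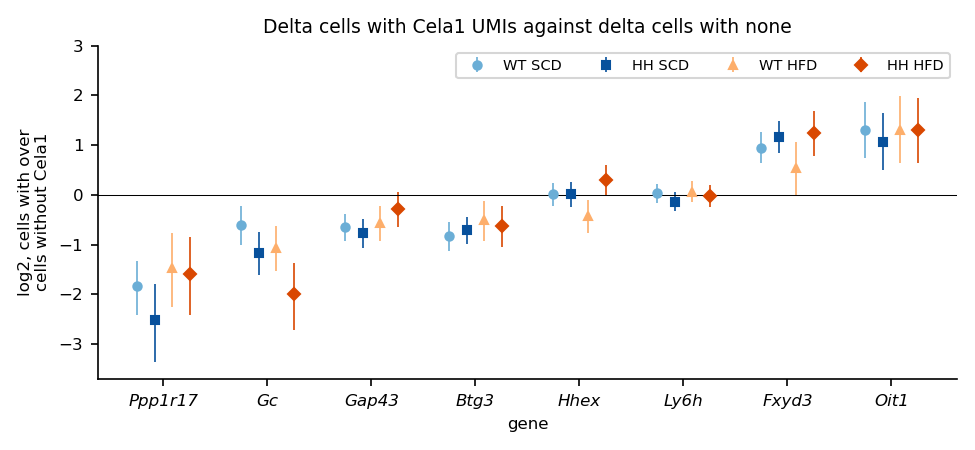
Log2 ratio of CPM in delta cells that kept a Cela1 UMI after thinning to 3000 UMIs over delta cells with none before thinning. Cells that lost their Cela1 UMIs in thinning are in neither group. Each point is 1 library with its 95% counting interval. Ppp1r17 lies between -2.52 and -1.46 and Ly6h between -0.14 and 0.06.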

How the data were processed

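According to the labels and the methods, each library pooled islets of 2 to 3 mice and was made with a 10x 3′ kit. The authors ran Cell Ranger 6.0 on GRCm38 (mm10). Their deposited matrices hold raw UMI counts, whole numbers for each gene in each barcode, before any normalisation, ambient correction or doublet removal. The annotation version was not given in the sources used here. Symbols with more than 1 row (38) were summed. The cell filter and the gate are given at the opening. Doublets were the cells with the highest Scrublet scores in each library, as many as 0.8% expected per 1000 cells gave (scanpy 1.11.5). They were kept in, and leaving them out was an alternative.

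Sums per library and gate were tested across gates with edgeR 4.0.16 (R 4.3.3), with DESeq2 1.42.0 as an alternative. Between libraries no test was made, since each group has 1 library. Ratios of CPM have exact 95% binomial counting intervals, a floor of 3 UMIs in place of 0 and a minimum mean of 50 CPM. Named genes were the 5 highest and 5 lowest per ratio with intervals clear of 0, the 15 highest and 10 lowest against all other gates, and listed genes. Of the 15, 1 gene is not reported here. Exceptions chosen after values were seen are Cela1, Ppp1r17 and the genes split by Cela1. The members and lists were chosen with earlier results of these data known. The edgeR step, the ratio intervals and the variation between cells were tested on simulated counts. Tables: Python 3.11.15, numpy 2.4.6, scipy 1.17.1, pandas 2.3.3.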

Additional observations from a re-analysis of the deposited data

Results flagged for a closer look

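Among genes of 50 CPM or more in delta cells, 3 of 2454 had HH over WT ratios past 1.5-fold in opposite directions on SCD and HFD, each with an interval that left out 0. These differences were not tested. Ttr had -1.20 on SCD and 0.64 on HFD, a difference of 1.84 on the log2 scale, and 774 of its 1263 WT SCD UMIs lay in 3 cells. Atf3 had 0.68 and -1.03, a difference of -1.71. Mt1 had -0.88 and 0.81, a difference of 1.70, with -0.58 and 0.40 in alpha and -0.61 and 0.51 in PP cells, which had the same signs as delta cells, and -0.93 and -1.11 in beta cells.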

How the results depend on the processing

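Limits: each group is 1 library, delta cells were fewest in WT HFD, and the strictest gate left 63 cells, so its values rest on 11 to 24 cells a library. The gate of Sst at 5% took the same 1110 cells. DESeq2, no filter, no library block and leaving out each library kept every class count within 1.5 times. No paired analysis was possible because the groups compared share fewer than 2 replicate numbers.

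Where Sst had to be at least 10 times each other hormone, delta shares were 0.792, 0.46, 0.629 and 0.345% in WT SCD, HH SCD, WT HFD and HH HFD, HH minus WT on HFD was -0.28 points and HH HFD minus HH SCD -0.11. Genes past 2-fold were 250 and 338 (HH over WT on SCD and HFD) and 264 and 437 (diet in WT and HH). List medians in the order HH over WT on SCD, on HFD, and diet in WT and HH, where moved, were -0.28, 0.43 (WT diet) and 0.37 (HH diet) for delta markers, 0.16, -1.04, 0.65 and -0.56 (reversed) for immediate early genes, -0.10, -0.45 and -0.23 (HH diet) for heat shock genes, -0.31 for interferon and MHC I genes, 0.15 and -0.36 (HH diet) for ribosomal genes, and 0.30, -0.20, -0.20 and -0.75 for mitochondrial genes. Class counts higher and lower were 1066 and 1553 (beta), 835 and 1023 (alpha), 658 and 866 (PP). Pdyn on SCD reversed to -0.42 and Ttr in WT diet to 0.86.

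With the looser filter, shares were 8.96% (WT SCD), 9.43% (HH SCD) and 6.11% (WT HFD), HH minus WT on HFD reversed to 0.75 points, and the mitochondrial medians were 0.12 (HH over WT on HFD), -0.31 (WT diet) and -0.14 (HH diet). Leaving out cells with 2% insulin or Gcg, an alternative added after the data were seen, gave shares of 8.5% and 9.57% on SCD, -0.04 points for WT diet and 0 genes past 2-fold for HH over WT on SCD. Without Scrublet doublets the counts were 0 (SCD) and 2 (HFD), and Hbb-bs reversed to -1.41, as it did without cells rich in other-cell markers (added after the data were seen), where the HFD count was 2. CPM without hormone and mitochondrial genes gave 3 genes (SCD) and 69 (HH diet), median-of-ratios scaling 2 (SCD) and mitochondrial medians of -0.43 and -0.37, and means over cells 0 (SCD). A minimum of 20 CPM gave 6, 21, 112 and 136 genes and a mitochondrial median of -0.36 (HH diet), and one of 200 CPM 2 (HFD), 17 and 9 genes, an immediate early median of 1.01 (WT diet) and a mitochondrial one of -0.22 (HH diet). With all UMIs as library size (added after the data were seen) class counts were 9637 and 677 (beta), 5911 and 925 (alpha), 7917 and 410 (PP), and without hormone and mitochondrial UMIs 4059 and 1452 (alpha). The cause of these moves was not tested.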

Other observations

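Nucb2, the precursor of nesfatin, had 98.3, 101, 108 and 116 CPM in delta cells of WT SCD, HH SCD, WT HFD and HH HFD, with 106 ± 7.87 on average against 215 ± 86.1 in beta, 55.4 ± 2.41 in alpha and 78.1 ± 4.83 in PP cells (SD, n = 4 libraries). It was lower than in beta cells with TMM (edgeR adjusted p = 1.7e-05) and was not called against alpha (edgeR adjusted p = 0.069) or PP cells (edgeR adjusted p = 0.69). Npy had 82, 46, 31 and 68 UMIs in WT SCD, HH SCD, WT HFD and HH HFD, in 7, 6, 5 and 14 cells, with 84.1%, 84.8%, 87.1% and 55.9% of them in 3 cells, and Vip and Gal had 0 in every library. Neurog3, the factor of endocrine precursors, had 101, 81, 130 and 129 UMIs in the same order. The delta sums were 3530208, 3121477, 1984447 and 2393610 UMIs, so both HFD libraries had more Neurog3 UMIs in smaller sums. Fev, a serotonergic factor, had 27.7 ± 7.48 CPM in delta and 0.476 ± 0.0992 in beta cells (SD, n = 4 libraries), with 22.1 ± 4.28 in alpha and 23.3 ± 5.75 in PP cells. It was not called against alpha (edgeR adjusted p = 0.73) or PP cells (edgeR adjusted p = 0.1).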
